A study of Mus musculus with 6 samples.

Results

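Antigen presentation by major histocompatibility complex (MHC) class I molecules was examined through 10 genes, H2-K1, H2-D1, B2m, Tap1, Tap2, Tapbp, Psmb8, Psmb9, Psmb10 and Nlrc5, of the 54167 genes measured by RNA-seq in colorectal tumors of mice. They were picked by name from the deposited gene table and were chosen by their TPM in the same 6 tumors, that is, with their differences between VP and Trp53fl/fl tumors already known. These differences are therefore given as a description, with no p-value for any single gene. The question of the study was what loss of p53, the tumor suppressor encoded by Trp53, does to colorectal tumors.

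All 6 tumors came from C57BL/6J mice with floxed Trp53 alleles, given azoxymethane (AOM, a carcinogen, 10 mg/kg) at 8 weeks of age, followed by repeated 7 days of drinking water with 2.5% DSS (dextran sulfate sodium, an irritant of the colon), each with 2 weeks of recovery, and collected on day 98. The 3 Trp53fl/fl tumors carried no Cre and kept the gene, whereas the 3 VP tumors also carried Pvillin-Cre. The villin promoter drives Cre in the intestinal epithelium, so leukocytes, fibroblasts and vessels of a VP tumor keep Trp53, and whole tumor tissue with all of these cells was sequenced. The labels number the tumors 1 to 3 in each genotype and do not say whether a sample held 1 tumor or several, so p-values measure only the spread between these samples. Values are TPM, transcript abundances scaled for length and to the same fixed total in every tumor. They keep no number of reads, so the depth of the libraries is unknown and the counting error of a value cannot be given.

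MHC class I molecules show short peptides from proteins made inside a cell to CD8 T cells and natural killer cells. A heavy chain, such as those encoded by H2-K1 and H2-D1, pairs with beta-2-microglobulin (B2m) in the endoplasmic reticulum. The peptides are cut by the proteasome, in which the subunits of the immunoproteasome, induced by interferon gamma, can replace the standard catalytic subunits, and are pumped into the endoplasmic reticulum by the transporter TAP and loaded with the help of tapasin. Nearly all nucleated cells carry class I molecules, including the epithelium and the leukocytes of the colon, and Nlrc5 is known as the transactivator of class I genes.

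Each of the 10 genes had a higher mean in VP tumors than in Trp53fl/fl tumors. The differences in log2(TPM + 1), VP minus Trp53fl/fl, ran from 0.46 for Nlrc5 to 1.23 for Psmb8, with a median of 0.77, beside a median of -0.07 over the 15117 genes tested, those that reached 1 TPM in at least 3 tumors. In 9 of the 10 genes the lowest VP tumor lay above the highest Trp53fl/fl tumor, and Nlrc5 was the exception. Such a separation with VP higher was present in 6.03% of all genes tested. Of the 10 genes, 0 passed an adjusted p under 0.05 in limma, against 0.0794% of all genes with VP higher and 0.165% in either direction, and 9 had an unadjusted limma p under 0.05, where 4.51% of all genes tested had such a p with VP higher. These counts come from the comparison with which the genes had been chosen. Summed over the 10 genes, expression was 3013 ± 397 TPM in Trp53fl/fl tumors and 5135 ± 788 TPM in VP tumors (mean ± SD, n = 3 each), or 0.271% to 0.346% and 0.426% to 0.579% of all transcripts. The sum was largest in VP replicate 2, and no VP tumor came down to the level of a Trp53fl/fl tumor. In whole tumors, more cells of a type and more RNA per cell cannot be told apart.

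**Figure D1:**
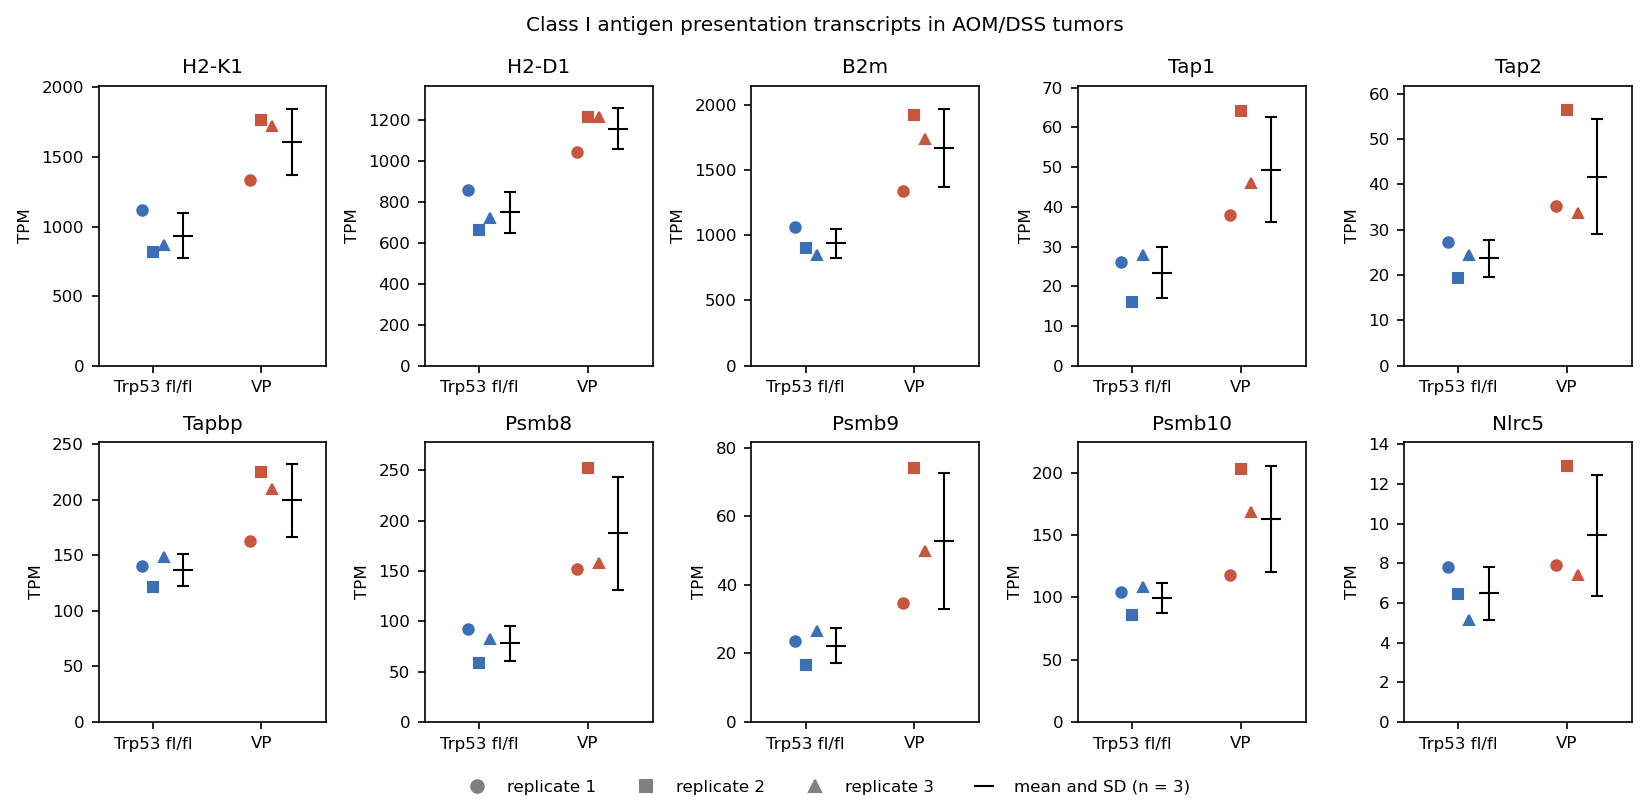
TPM of the 10 class I antigen presentation genes in each of the 6 tumors (vertical axis, linear from 0), with circles, squares and triangles for replicates 1, 2 and 3 and bars for the mean and SD of 3 tumors. VP replicate 2 was the highest of the 6 tumors in all 10 panels, and the genotypes overlapped only for Nlrc5.

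The labels were checked with Trp53 itself, which was at 124.94, 99.30 and 147.45 TPM in Trp53fl/fl tumors and at 38.45, 32.79 and 27.83 TPM in VP tumors (log2 difference -1.87, limma adjusted p = 0.0207). Every VP tumor was below every Trp53fl/fl tumor, and the log2 difference stayed between -2.02 and -1.74 with single tumors left out, although the adjusted p became 0.0986 and 0.0553 without Trp53fl/fl replicate 1 or 3 and 0.0583 and 0.0938 without VP replicate 1 or 2. Of the 15117 genes, 25 passed the adjusted p, and 6 to 28 did so with single tumors left out. All 12 epithelial markers were above 1 TPM in every tumor of this tissue, labelled as colorectal tumor.

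The classical heavy chains and B2m form the complex on the cell surface and were by far the most abundant of the 10. H2-K1 (ENSMUSG00000061232, chr17:33996017-34000347, minus strand), which encodes the K heavy chain, was at 1116.84, 819.79 and 866.23 TPM in Trp53fl/fl tumors and at 1332.85, 1762.56 and 1721.70 TPM in VP tumors. The log2 difference was 0.78 (SE 0.17). VP replicates 2 and 3 were close to each other and VP replicate 1 lay between them and the highest Trp53fl/fl tumor. H2-D1 (ENSMUSG00000073411, chr17:35262730-35267499, plus strand), for the D heavy chain, was at 861.33, 664.09 and 722.93 TPM in Trp53fl/fl tumors and at 1043.78, 1217.76 and 1217.61 TPM in VP tumors, a log2 difference of 0.63 (SE 0.14). The same order of tumors within VP was seen, with replicate 1 the lowest. B2m (ENSMUSG00000060802, chr2:122147686-122153083, plus strand), the light chain shared by all class I molecules, was at 1061.76, 904.83 and 849.80 TPM in Trp53fl/fl tumors and at 1337.17, 1924.22 and 1738.91 TPM in VP tumors, a log2 difference of 0.82 (SE 0.17). Gene positions are those of GENCODE M21 on GRCm38. The processing notes of the submitters name mm9, and the deposited table gives no coordinates.

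Because near-identical heavy chain genes can share reads, the summed TPM of H2-K1, H2-D1 and a list of H2-Q, H2-T and H2-M genes was also taken. Of the H2-M genes the list held only H2-M2 and H2-M3, and H2-Q8 and H2-Q9 were not in the sum. The sum was 2084 ± 307 TPM in Trp53fl/fl tumors and 3367 ± 443 TPM in VP tumors (mean ± SD, n = 3 each), and the ranges of 1852 to 2431 and 2860 to 3679 TPM did not overlap. H2-K1 and H2-D1 made up 80.1% to 81.4% of this sum in Trp53fl/fl tumors and 81.0% to 83.1% in VP tumors. Of the windows of 150 bases in the longest protein-coding transcript of a gene, H2-D1 shared 35 of 1953 with another gene, H2-Q1, and H2-K1 shared 0 of 1470.

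Heavy chains and light chain kept about the same proportion. The ratio of summed heavy chain TPM to B2m TPM was 2.05 to 2.32 in Trp53fl/fl tumors and 1.91 to 2.14 in VP tumors, so these ranges overlapped although both parts of the ratio were separated. The ratio of H2-K1 to H2-D1 TPM was 1.20 to 1.30 and 1.28 to 1.45, which also overlapped.

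The upstream regions of these 3 genes are shown because they carry the same short elements in the same order. The sequences are RefSeq promoters on GRCm38.p6, printed 5′ to 3′ on the strand of the gene as the 210 bases that end just before the RefSeq start, and capitals mark matches to an NF-kappa-B site, to the core of the X2 box (TGACG), to the Y box (CCAAT or its reverse complement ATTGG) and, in B2m, to an interferon-stimulated response element (ISRE, that is GAAA, then NN, then GAAA).
H2-K1, chr17:34000348-34000557, minus strand: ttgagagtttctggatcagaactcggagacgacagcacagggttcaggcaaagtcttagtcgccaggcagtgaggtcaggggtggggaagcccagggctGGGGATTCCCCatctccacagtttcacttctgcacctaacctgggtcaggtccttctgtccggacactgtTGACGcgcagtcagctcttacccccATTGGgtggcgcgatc
H2-D1, chr17:35262884-35263093, plus strand: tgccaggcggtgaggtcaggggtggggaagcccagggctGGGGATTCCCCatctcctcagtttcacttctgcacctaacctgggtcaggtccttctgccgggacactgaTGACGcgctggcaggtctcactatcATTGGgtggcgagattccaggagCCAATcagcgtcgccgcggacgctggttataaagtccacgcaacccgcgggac
B2m, chr2:122147477-122147686, plus strand: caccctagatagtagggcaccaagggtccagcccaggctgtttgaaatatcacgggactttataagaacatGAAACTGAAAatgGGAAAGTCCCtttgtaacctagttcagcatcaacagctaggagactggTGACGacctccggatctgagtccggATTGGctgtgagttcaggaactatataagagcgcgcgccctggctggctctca

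Both strands were searched in windows from 250 bases before to 50 bases after the start, and a match is a description of letters, not of binding. The ISRE was searched without mismatch, so H2-K1 and H2-D1 may hold a diverged form that is not marked. The 2 overlapping NF-kappa-B matches in H2-K1 and in H2-D1 are one run of capitals each. In all 3 genes an X2 core was followed by a Y box whose start lay 25 bases downstream, and the NF-kappa-B match started 70, 70 and 48 bases before the X2 core in H2-K1, H2-D1 and B2m. Among the 32851 promoters of the table, 31 (0.0944%) held an X2 core and a Y box at this distance and orientation, and they belonged to 27 genes. Alone, the elements were common, with the Y box in 37.4%, the X2 core in 20.8%, NF-kappa-B in 8.46% and the ISRE in 3.44% of all promoters. A p53 response element without mismatch and with a spacer of up to 13 bases was found in 0.0731% of promoters and in 0 of the 8 genes with an entry, which says only that these letters were not in the window.

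The genes with the X2 and Y pair could be compared between genotypes apart from the 10. Of 14 such genes tested, 7 were higher and 7 lower in VP tumors, with a median log2 difference of 0.02, against -0.07 over all genes. The genotypes did not overlap for 1 that was higher, Trim26 (0.22), and 4 that were lower, Glyr1, Hnrnpf, Nasp and Ubn1 (-0.12 to -0.29), beside 6.03% and 13.3% of all genes. H2-M3, a class I-like chain that presents formylated peptides, differed by 0.42 with overlap.

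**Figure D2:**
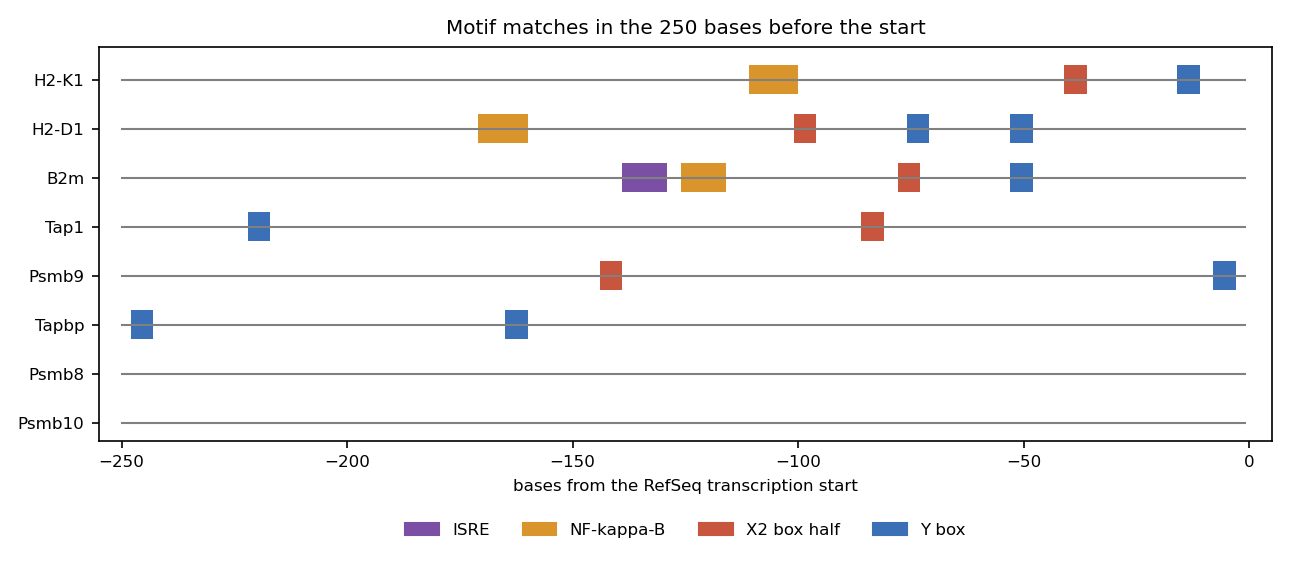
Matches to 4 elements in the 250 bases before the RefSeq start of the 8 genes with a promoter entry, drawn to scale along the horizontal axis in bases from the start, with the first listed start of H2-K1. H2-K1, H2-D1 and B2m each held NF-kappa-B, X2 and Y matches in this order, and Psmb8 and Psmb10 held none of the 4.

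The peptide transporter and tapasin were much less abundant than the chains they load. Tap1 (ENSMUSG00000037321, chr17:34187553-34197225, plus strand), which encodes a subunit of TAP, was at 26.21, 16.06 and 27.86 TPM in Trp53fl/fl tumors and at 38.04, 64.03 and 46.04 TPM in VP tumors. The log2 difference was 1.05 (SE 0.26), the third largest of the 10. Tap2 (ENSMUSG00000024339, chr17:34203527-34216321, plus strand), the partner subunit, was at 27.33, 19.32 and 24.50 TPM in Trp53fl/fl tumors and at 35.18, 56.34 and 33.63 TPM in VP tumors, a log2 difference of 0.76 (SE 0.22). For both subunits Trp53fl/fl replicate 2 was the lowest and VP replicate 2 the highest tumor, and the other VP tumors were nearer to the Trp53fl/fl range. The ratio of Tap1 to Tap2 TPM was 0.831 to 1.14 and 1.08 to 1.37, which overlapped.

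Tapbp (ENSMUSG00000024308, chr17:33915899-33929292, plus strand) encodes tapasin, which bridges TAP and the empty class I molecule. It was at 140.46, 121.06 and 148.25 TPM in Trp53fl/fl tumors and at 162.79, 225.18 and 209.80 TPM in VP tumors, a log2 difference of 0.53 (SE 0.15). The gap was narrow here, since VP replicate 1 lay just above Trp53fl/fl replicate 3.

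Tap1 and Psmb9 lie head to head on chromosome 17, with 225 bases between their RefSeq starts. The GENCODE M21 bounds of these genes overlap instead, from 34187553 to 34187764, so the interval depends on the starts taken. The whole interval is shown because both genes are read from it in opposite directions, with a Y box and an X2 core in capitals.
Tap1, chr17:34187331-34187555, plus strand: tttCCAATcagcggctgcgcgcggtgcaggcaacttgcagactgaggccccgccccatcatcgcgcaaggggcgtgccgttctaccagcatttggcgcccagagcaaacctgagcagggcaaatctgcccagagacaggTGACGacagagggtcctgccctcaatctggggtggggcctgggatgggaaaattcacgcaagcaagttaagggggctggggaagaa

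Read toward Psmb9, the same Y box lay 8 to 4 bases before the Psmb9 start and the same X2 core 144 to 140 bases before it. Psmb9 and Tap1 were higher in VP tumors by 1.17 and 1.05 in log2(TPM + 1). Psmb8 and Tap2 follow in the same region, and Psmb8 held no match to any of the 5 elements in its window. The searched windows of Psmb8, Tapbp and H2-D1 lie inside the GENCODE M21 bounds of these genes, so bases before those bounds were not searched.

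Of the immunoproteasome subunits, Psmb8 and Psmb9 had the largest differences of the 10 genes, and Psmb10 lay below the median. Psmb8 (ENSMUSG00000024338, chr17:34197721-34201454, plus strand), which encodes the chymotrypsin-like subunit that takes the place of Psmb5, was at 92.75, 59.03 and 82.73 TPM in Trp53fl/fl tumors and at 151.63, 252.46 and 157.81 TPM in VP tumors, a log2 difference of 1.23 (SE 0.24). Psmb9 (ENSMUSG00000096727, chr17:34181987-34187764, minus strand), which replaces Psmb6, was at 23.73, 16.55 and 26.57 TPM in Trp53fl/fl tumors and at 34.80, 74.16 and 49.82 TPM in VP tumors, a log2 difference of 1.17 (SE 0.29). In each of these genes VP replicate 2 stood well above the other VP tumors. Psmb10 (ENSMUSG00000031897, chr8:105935735-105938444, minus strand), which replaces Psmb7 and lies outside the MHC, was at 104.45, 86.17 and 108.57 TPM in Trp53fl/fl tumors and at 117.65, 203.03 and 168.32 TPM in VP tumors. Its log2 difference of 0.67 (SE 0.21) was the smallest of the 3 subunits, and VP replicate 1 lay close to the Trp53fl/fl tumors.

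The standard subunits differed little. Psmb5, Psmb6 and Psmb7 differed by 0.07, 0.12 and 0.01 in log2(TPM + 1), with limma adjusted p = 0.879, 0.747 and 0.966, and their sign turned when single tumors were left out and, for Psmb7, after quantile normalization. The ratio of each immunoproteasome subunit to its standard counterpart, which does not depend on the scaling of a tumor, was larger in VP tumors. Psmb8 over Psmb5 was 0.280 ± 0.0212 in Trp53fl/fl tumors and 0.651 ± 0.190 in VP tumors (mean ± SD, n = 3 each). Psmb9 over Psmb6 was 0.0752 ± 0.0064 (SD, n = 3) and 0.165 ± 0.0524 (SD, n = 3). For Psmb10 over Psmb7 the ratio was 0.572 ± 0.0421 (SD, n = 3) and 0.919 ± 0.181 (SD, n = 3). None of the 3 ratios overlapped between genotypes, and only in VP replicate 2 did Psmb10 exceed Psmb7.

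**Figure D3:**
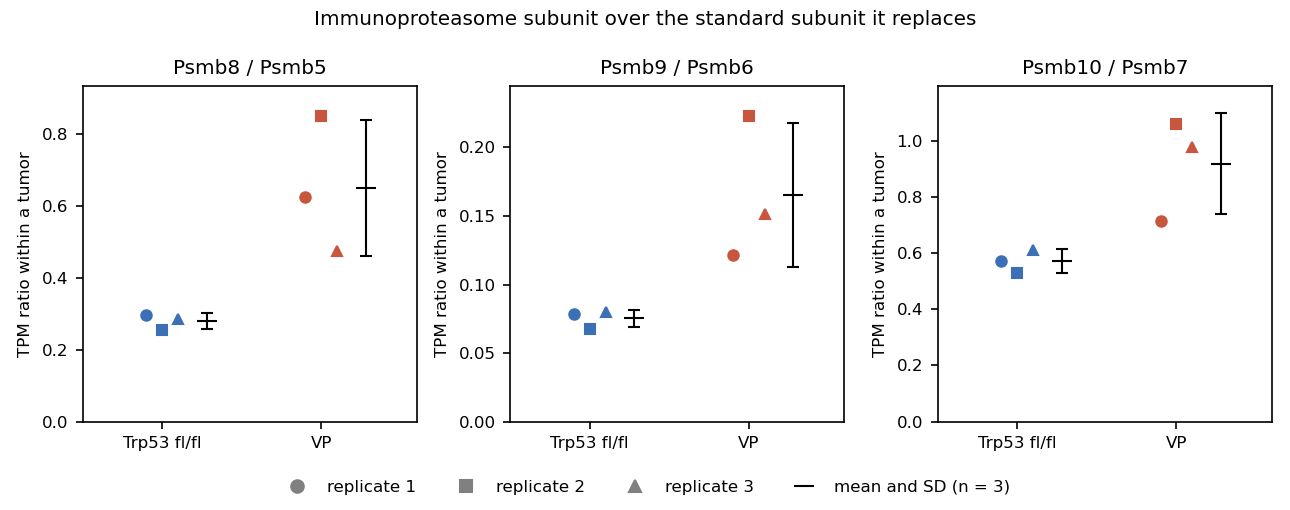
Ratio of the TPM of an immunoproteasome subunit to that of the standard subunit it replaces, within each tumor (vertical axis, linear from 0), with the mean and SD of 3 tumors. The ratio of Psmb8 to Psmb5 was 0.256 to 0.297 in Trp53fl/fl tumors and 0.475 to 0.852 in VP tumors, and the other panels were separated as well.

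Nlrc5 (ENSMUSG00000074151, chr8:94434356-94527272, plus strand), the regulator of the set, was the least abundant and the least separated. It was at 7.82, 6.45 and 5.15 TPM in Trp53fl/fl tumors and at 7.92, 12.91 and 7.40 TPM in VP tumors, a log2 difference of 0.46 (SE 0.24). VP replicate 3 lay below Trp53fl/fl replicate 1, and without VP replicate 2 the difference was 0.23.

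The order of the levels was nearly the same in both genotypes. In Trp53fl/fl tumors the means were 939 ± 110 TPM for B2m, 934 ± 160 TPM for H2-K1 and 749 ± 101 TPM for H2-D1 (SD, n = 3), and neighbours in this order were within their spread between tumors. Within each of the 6 tumors, however, H2-K1 was above H2-D1 (ratio 1.20 to 1.45). Tapbp followed at 137 ± 14.0 TPM, then Psmb10 at 99.7 ± 11.9 TPM and Psmb8 at 78.2 ± 17.3 TPM (SD, n = 3). The latter pair was within its spread between tumors, although Psmb10 was above Psmb8 in every Trp53fl/fl tumor. Tap2, Tap1 and Psmb9, at 23.7 ± 4.06, 23.4 ± 6.39 and 22.3 ± 5.16 TPM (SD, n = 3), could not be ordered, and Nlrc5 came last at 6.47 ± 1.34 TPM. In VP tumors B2m, at 1667 ± 300 TPM, and H2-K1, at 1606 ± 237 TPM, were again within their spread between tumors, although B2m was above H2-K1 in every VP tumor. H2-D1 was below both at 1160 ± 100 TPM (SD, n = 3). Psmb8, at 187 ± 56.5 TPM, stood level with Tapbp, at 199 ± 32.5 TPM, and with Psmb10, at 163 ± 42.9 TPM (SD, n = 3). Psmb9, Tap1 and Tap2, at 52.9 ± 19.9, 49.4 ± 13.3 and 41.7 ± 12.7 TPM (SD, n = 3), were within their spread between tumors, although Tap1 was above Tap2 in every VP tumor. Nlrc5 was at 9.41 ± 3.04 TPM.

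Within a genotype the 10 genes shared part of their order of tumors. All 10 were highest in VP replicate 2, and VP replicate 1 was the lowest VP tumor for 8. Trp53fl/fl replicate 2 was the lowest of all for 8, the exceptions being B2m and Nlrc5, which were lowest in Trp53fl/fl replicate 3. The highest Trp53fl/fl tumor was replicate 3 for Tap1, Tapbp, Psmb9 and Psmb10 and replicate 1 for the others. The mean of log2(TPM + 1) over the 10 was 6.77, 6.36 and 6.63 in Trp53fl/fl tumors and 7.11, 7.73 and 7.36 in VP tumors. After centring each gene on its mean over all 6 tumors, Psmb10 and Tap2 lay nearest to this mean profile, with a root mean square difference of 0.117. Nlrc5 lay furthest, with 0.267, followed by Psmb9 with 0.250 and Psmb8 with 0.241. These values include the size of the genotype difference and do not measure variation within a genotype alone.

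Of 14974 genes outside the lists used here, the 5 with the centred profile nearest to that mean over the 6 tumors were Cd14, the co-receptor for lipopolysaccharide (root mean square difference 0.0783), Shf (0.107), the homeobox gene Mkx (0.122), the nuclear body protein gene Sp140 (0.128) and Zbp1, a sensor of left-handed nucleic acid (0.133). Cd14 was at 118.26, 87.21 and 109.62 TPM in Trp53fl/fl tumors and at 134.12, 227.99 and 191.90 TPM in VP tumors. It repeated the low Trp53fl/fl replicate 2 and the high VP replicate 2. The likeness is measured on the same 6 libraries and includes the genotype difference.

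Other genes of the pathway were listed by role, also with earlier results of these tumors known, so that their counts are not independent evidence. Of 70 genes tested in 5 lists, 39 were higher and 31 lower in VP tumors, with a median log2 difference of 0.05, and 0 passed an adjusted p under 0.05 in limma (smallest 0.133). An unadjusted limma p under 0.05 was reached by 17, beside 12.5% of all genes (8, 7 and 8 without Trp53fl/fl replicate 2, VP replicate 2 or VP replicate 3), and the genotypes did not overlap for 12 and 10, beside 6.03% and 13.3%.

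The standard 20S proteasome was nearly level. Of its 14 subunits 10 were higher and 4 lower, with a median log2 difference of 0.07, and 0 reached even an unadjusted p under 0.05. The furthest were Psma3 at -0.24, Psma7 at 0.21, Psmb4 at 0.21 and Psmb3 at 0.20. Among 9 activators and assembly factors, 5 were higher and 4 lower (median 0.01). Psme1 and Psme2, the subunits of the PA28 activator, differed by 0.36 and 0.45 (limma adjusted p = 0.341 and 0.340). Psme1 was at 193 to 225 TPM in Trp53fl/fl tumors and at 243 to 299 TPM in VP tumors, and Psme2 at 177 to 222 and 226 to 314 TPM, so that both were separated by a narrow gap. Psme4, for the activator PA200, lay the other way at -0.39 (limma adjusted p = 0.399), and Pomp, the assembly chaperone, at -0.17.

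Peptide loading and trimming showed no common direction. Of 13 genes 6 were higher and 7 lower (median -0.02). The loading chaperones calreticulin (Calr), calnexin (Canx) and ERp57 (Pdia3) differed by 0.15, -0.07 and -0.11 in log2(TPM + 1), with limma adjusted p = 0.620, 0.845 and 0.719, where Canx turned to 0.0033 after rescaling by the median of ratios. Tapbpl, the tapasin-related editor, differed by 0.33 (limma adjusted p = 0.390), the largest of the list, and Lap3, Lnpep and Tpp2, which trim peptides, by 0.30, -0.29 and -0.28. Erap1, the trimming peptidase of the endoplasmic reticulum, differed by 0.22 (limma adjusted p = 0.594), and by 0.046 without VP replicate 2.

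The remaining heavy chains had the highest median of the 5 lists. Of 17 tested, 13 were higher and 4 lower, with a median log2 difference of 0.42. Higher with an unadjusted limma p under 0.05 were 9 of the 17, beside 4.51% of all genes tested. H2-T23, which encodes Qa-1, was at 179.71, 176.44 and 173.73 TPM in Trp53fl/fl tumors and at 209.00, 303.11 and 282.50 TPM in VP tumors (log2 difference 0.56, limma adjusted p = 0.285). H2-T22, whose product is seen by gamma-delta T cells, was at 44.70, 41.75 and 46.20 TPM and at 62.30, 84.37 and 71.84 TPM (0.70, limma adjusted p = 0.168). In both genes the Trp53fl/fl tumors were nearly level and VP replicate 1 was the lowest VP tumor. H2-Q7, for a Qa-2 chain, and H2-Q6 differed by 0.90 and 0.74 (limma adjusted p = 0.360 and 0.381) with overlapping tumors, and their values are uncertain because the H2-Q genes are close copies of each other. H2-T3 was below 1 TPM, and H2-Q8 and H2-Q9 were not analysed here.

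Cd1d1, a class I-like chain that presents lipids to natural killer T cells, went the opposite way. It was at 21.09, 17.09 and 16.79 TPM in Trp53fl/fl tumors and at 6.48, 7.22 and 10.53 TPM in VP tumors, a log2 difference of -1.11 (SE 0.20, limma adjusted p = 0.133). All VP tumors were below all Trp53fl/fl tumors. Fcgrt, the neonatal Fc receptor, which also pairs with B2m, differed by 0.47 (limma adjusted p = 0.319).

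Of the regulators of class I transcription and of the interferon gamma signal, 12 of 17 were lower and 5 higher. Among all 15117 genes tested, 9187 were lower. The median log2 difference of the regulators was -0.12, beside -0.07 over all genes. Rfx5, which binds the X box, was at 12.65, 15.18 and 13.52 TPM in Trp53fl/fl tumors and at 9.92, 9.19 and 9.46 TPM in VP tumors (log2 difference -0.49, limma adjusted p = 0.278). Creb1 differed by -0.49 and Rfxap by 0.44 (limma adjusted p = 0.400 and 0.346), so Rfx5 and Rfxap, both subunits of the complex RFX, lay on opposite sides of 0. Irf1, a transcription factor that interferon gamma induces, was at 81.91, 81.25 and 85.95 TPM in Trp53fl/fl tumors and at 67.15, 123.14 and 111.29 TPM in VP tumors (log2 difference 0.23, limma adjusted p = 0.672), and the difference was 0.49 without VP replicate 1 and 0.058 without VP replicate 2. Irf1 was highest in VP replicate 2, like the 10 genes, but lowest in VP replicate 1, so the genotypes overlapped. Ifng itself was listed at 0.14, 0.07 and 0.00 TPM and at 0.00, 1.34 and 0.28 TPM and was too low to be tested.

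**Figure D4:**
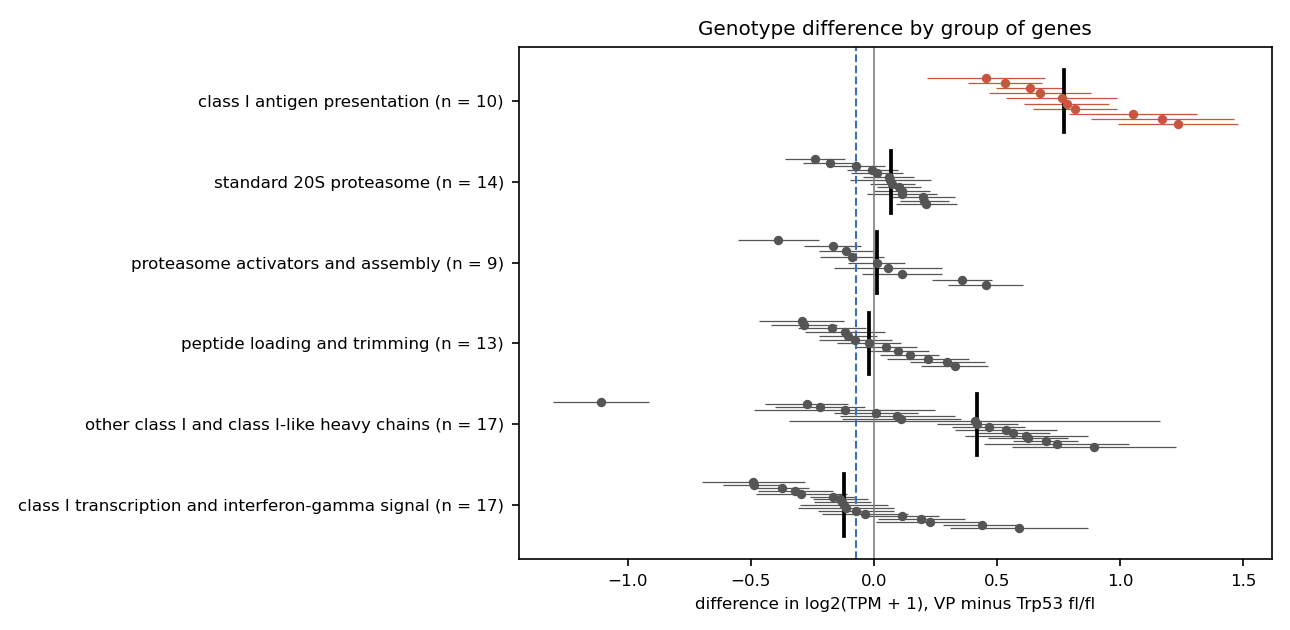
Difference in log2(TPM + 1), VP minus Trp53fl/fl (horizontal axis), for the 10 class I antigen presentation genes and 5 lists of related genes, with a point and SE bar per gene, a black tick for the median of each list and a dashed line for the median of all genes (-0.07). The 10 genes lay between 0.46 and 1.23, the other heavy chains had a median of 0.42 with Cd1d1 at -1.11, and the medians of the remaining lists lay between -0.12 and 0.07.

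Of the 10 genes, 7 lie on chromosome 17, within 1.35 Mb from Tapbp to H2-D1 (GENCODE M21, GRCm38). The 75 other genes tested in this stretch gave 40 higher and 35 lower, with a median log2 difference of 0.02. Of these, 1, complement factor B (Cfb), rose with an adjusted p under 0.05 (1.10, limma adjusted p = 0.0318), beside 0.0794% of all genes. The call for Cfb was lost in 5 of 6 fits with a tumor left out (limma adjusted p = 0.113 to 0.165). It was kept only without VP replicate 3 (limma adjusted p = 0.0283). The genotypes did not overlap for 8 that were higher and 6 that were lower, beside 6.03% and 13.3% of all genes.

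The genes of MHC class II presentation overlapped between genotypes. The summed TPM of the MHC class II genes H2-Aa, H2-Ab1 and H2-Eb1 was 615.58, 570.24 and 538.31 in Trp53fl/fl tumors and 223.82, 650.06 and 877.26 in VP tumors. VP replicate 1, which was above all Trp53fl/fl tumors in the sum of the 10 class I genes, was the lowest of the 6 for class II. The invariant chain gene Cd74 and the class II transactivator gene Ciita also overlapped, and the limma adjusted p was between 0.822 and 0.970 for the 5 class II genes. Without VP replicate 1 all 5 were higher in VP tumors, by 0.31 to 0.64 in log2(TPM + 1).

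Genes that interferon gamma induces were uneven. Cxcl10, a chemokine for T cells, was at 10.94, 4.06 and 10.65 TPM in Trp53fl/fl tumors and at 13.20, 40.41 and 26.20 TPM in VP tumors (log2 difference 1.5, limma adjusted p = 0.317). Igtp, Gbp2 and Cxcl9 differed by 1.11, 0.70 and 0.03 (limma adjusted p = 0.346, 0.542 and 0.990). Without VP replicate 2, Igtp differed by 0.70 and Gbp2 by 0.19, and without VP replicate 1 Gbp2 differed by 1.20. Cxcl9 turned to -0.084 with a pseudocount of 0.1. All 4 were highest in VP replicate 2, and only Cxcl10 was separated between genotypes.

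Markers of the cells that a tumor can hold were summed beside the class I genes. Pan-leukocyte markers (6 of 6 tested) were at 189 to 235 TPM in Trp53fl/fl tumors and 187 to 263 TPM in VP tumors, and macrophage and dendritic markers (8 of 10 tested) at 457 to 494 and 474 to 585 TPM. T and NK cell markers (6 of 12 tested) were at 22.4 to 26.0 and 14.6 to 28.2 TPM, with 4 of the 12 under 1 TPM in every tumor, namely Cd8a, Cd8b1, Prf1 and Ncr1, the last listed at 0 in VP replicate 1. These 3 sums overlapped between genotypes, although single markers did not. Gzma was at 1.58 to 2.33 and 3.48 to 4.41 TPM and Cd68 at 26.4 to 34.5 and 41.7 to 47.5 TPM (limma adjusted p = 0.274 and 0.270), and Cd3g was lower in VP tumors, at 6.59 to 7.91 and 2.95 to 6.43 TPM (limma adjusted p = 0.400). B and plasma cell markers, at 430 to 843 and 398 to 894 TPM, fibroblast markers, at 538 to 592 and 461 to 668 TPM, and endothelial markers, at 48.7 to 65.5 and 60.6 to 63.4 TPM, overlapped as well, while the fibroblast genes Lum and Pdgfra were lower in VP tumors without overlap (limma adjusted p = 0.313 and 0.306). Jchain made up most of the B and plasma cell sum, and C1qa, C1qb and C1qc most of the macrophage and dendritic sum.

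The neutrophil and the epithelial sums did not overlap. Neutrophil markers were at 400 to 728 TPM in Trp53fl/fl tumors and 1200 to 2017 TPM in VP tumors, with 8 of 8 higher and a median log2 difference of 1.23. Of these, 5 were without overlap (S100a8, S100a9, Cxcr2, Retnlg and Ngp), beside 6.03% of all genes. S100a8 and S100a9 made up most of the summed TPM in every tumor. They were at 75.5 to 196 and 148 to 348 TPM in Trp53fl/fl tumors and at 316 to 614 and 568 to 1007 TPM in VP tumors. The neutrophil sum and the ratio of B2m to it therefore follow mainly S100a8 and S100a9. Csf3r, Ly6g and Mmp9 differed by only 0.07, 0.21 and 0.23. With single tumors left out, Csf3r and Ly6g fell to -0.23 and -0.18. Ngp alone rose with an adjusted p under 0.05, beside 0.0794% of all genes (4.37, limma adjusted p = 0.0080, and 0.0513 without Trp53fl/fl replicate 3). Within VP the neutrophil sum was 2017, 1953 and 1200 TPM in replicates 1, 2 and 3, whereas the sum of the 10 class I genes was 4262, 5793 and 5351 TPM. Both sums were higher in VP tumors, and their order within the 3 VP tumors was not the same. Epithelial markers were at 10908 to 11288 and 12371 to 13412 TPM, with 10 of 12 higher, 3 of them without overlap (Krt19, Cldn7 and Lgals4), beside 6.03% of all genes. Of the 12, 0 passed the adjusted p (smallest limma adjusted p = 0.292). An unadjusted limma p under 0.05 with VP higher was reached by 3, beside 4.51% of all genes. The part of these cells in the class I difference was not tested. The ratio of B2m TPM to the summed pan-leukocyte markers was 3.62 to 5.34 in Trp53fl/fl tumors and 7.16 to 7.31 in VP tumors, and its ratio to the summed epithelial markers was 0.0753 to 0.0973 and 0.108 to 0.144. Both were higher in VP tumors without overlap, whereas the ratio of B2m to the summed neutrophil markers was lower, at 1.46 to 2.26 in Trp53fl/fl tumors and 0.663 to 1.45 in VP tumors.

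**Figure D5:**
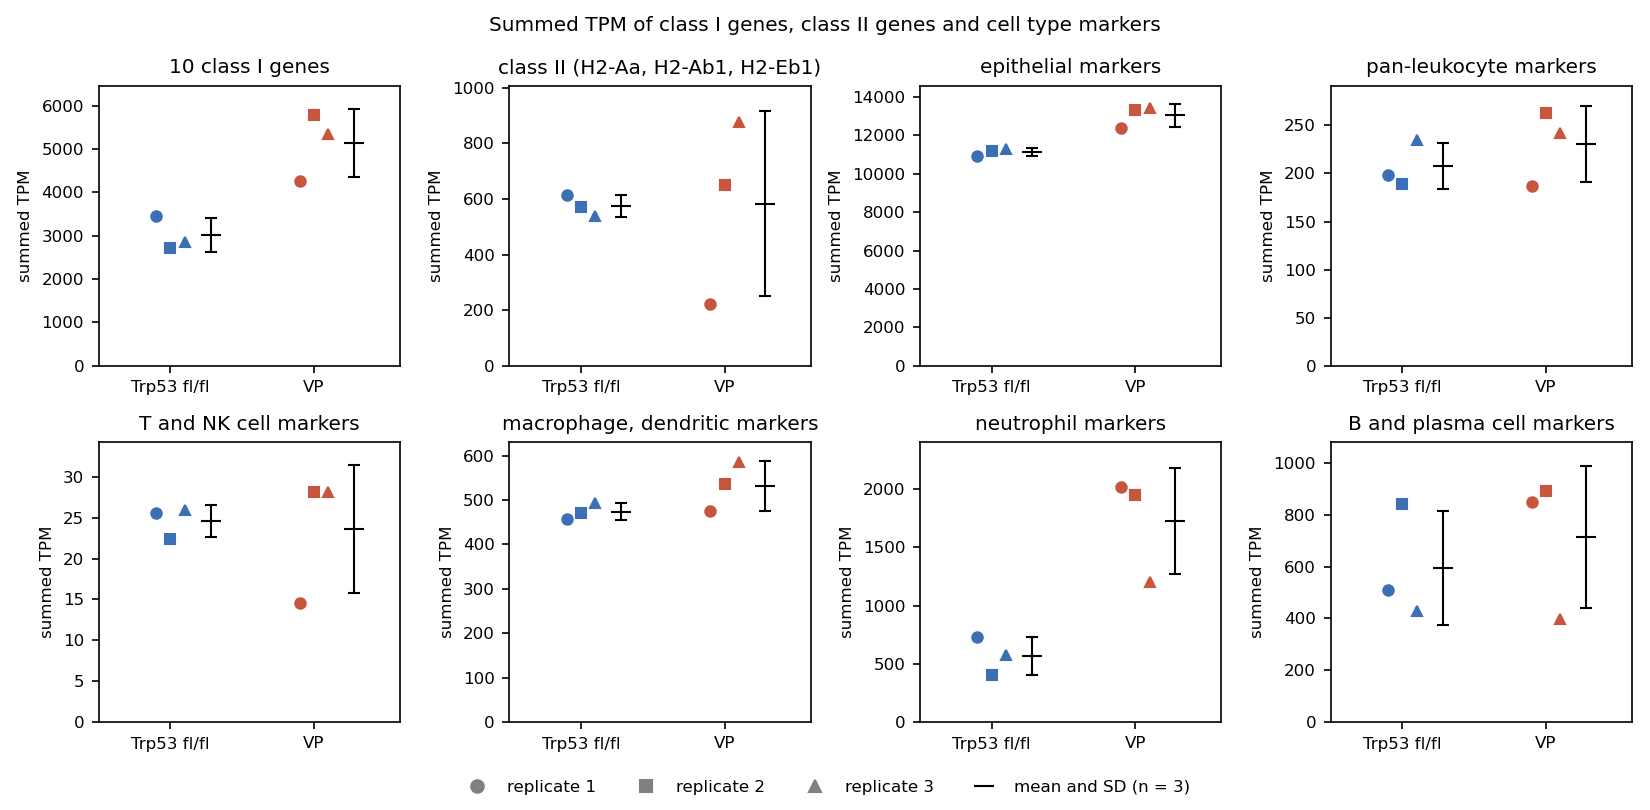
Summed TPM (vertical axes, linear from 0) of the 10 class I genes, of 3 class II genes and of 6 lists of cell type markers in each of the 6 tumors, with the mean and SD of 3 tumors. The class I, epithelial and neutrophil sums were separated between genotypes, whereas the class II sum ranged from 224 to 877 TPM among VP tumors around the Trp53fl/fl values of 538 to 616.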

How the data were processed

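Poly(A) RNA of 6 AOM/DSS tumors was sequenced by the authors as paired reads of 150 bases, and TPM per gene were deposited with 2 decimals. The submitters' processing notes name HISAT2, StringTie and mm9, with versions not given in the sources used here. TPM keep no read number, so depth is unknown, and a change in abundant genes shifts the others.

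Groups follow the genotype labels. Values were transformed to log2(TPM + 1), which understates differences of weakly expressed genes, and 15117 genes that reached 1 TPM in 3 or more tumors were fitted with limma 3.58.1 in R 4.3.3 (empirical Bayes with trend, Benjamini-Hochberg adjustment, threshold 0.05), after a check on simulated data. SEs come from this fit. The 10 genes and all lists were chosen with earlier results of these data known. Named are the 10 genes, the 4 largest differences per related list, genes chosen by role, and the 5 nearest profiles over the 6 tumors. A gene that this rule names is not reported here. Cfb, H2-M3, Trim26, Glyr1, Hnrnpf, Nasp, Ubn1 and single cell type markers were named after their values were seen. Of the gene IDs, 96.2% had an entry in GENCODE M21 (GRCm38), which gave positions and transcripts. RefSeq promoters (GRCm38.p6) were given for 8 of the 10 genes, not for Tap2 and Nlrc5, and were searched with Python 3.11.15. NF-kappa-B and p53 elements were searched by their consensus.

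Alternatives were a pseudocount of 0.1, no filter, a mean of 5 TPM or more as the filter, median-of-ratios scaling, quantile normalization, the replicate number as a block, no trend, and each tumor left out in turn. All per-sample columns were used.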

Additional observations from a re-analysis of the deposited data

How the results depend on the processing

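The 10 class I genes kept a higher mean in VP tumors in all 110 values under the scaling, filter, pseudocount and leave-one-out alternatives, between 0.23 and 1.43 in log2(TPM + 1). The genes had been chosen with these differences known, so the kept sign is a description and no separate evidence. A change of filter cannot alter the difference of a single gene. The median of the 10 genes was 0.65 to 0.90 with single tumors left out, the mean over the genes 0.65 to 0.96, the mean log2 immunoproteasome ratio 0.79 to 1.10 and the log2 difference of the heavy chain sum 0.61 to 0.81. Nlrc5 no longer overlapped after median-of-ratios scaling or quantile normalization, which separated all 10 genes, beside 9.97% and 8.33% of all genes. Median-of-ratios scaling moved the median of all genes from -0.07 to 0.00.

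The number of genes passing the adjusted p, 25 with 48.0% of them higher, was less stable. It was 7 without a filter, 20 with 60.0% higher after median-of-ratios scaling, and 6 to 28 with single tumors left out, namely 8 and 10 without Trp53fl/fl replicate 1 or 3 and 9 and 6 without VP replicate 1 or 2. With the replicate number as a block it was 10. The shared numbers were not taken as pairing, since the correlations of same-numbered tumors were 0.019, -0.052 and 0.018. The related lists gave 0 genes under every alternative, and the unadjusted count of 17 became 10 with the block and 8, 7 and 8 without Trp53fl/fl replicate 2, VP replicate 2 or VP replicate 3.

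Some calls were lost. Without a filter, Trp53, Ngp and Cfb had limma adjusted p = 0.104, 0.0795 and 0.116, with the block Trp53 and Cfb had 0.0883 and 0.101, and without trend Cfb had 0.0649. Of 44 genes followed through the alternatives, 26 moved by over 1.5 times or changed sign with some tumor left out, and 0 of these 26 passed the adjusted p with all tumors. The 44 genes followed were those named from the related lists, the class II and interferon gamma genes, Trp53, Cfb, Ngp and Trim26. Sign changes concerned differences that missed the adjusted p. Canx became 0.0033 with median-of-ratios scaling and ran from -0.21 to 0.0082 with single tumors left out. Psmb7 became -0.020 with quantile normalization and ran from -0.048 to 0.061, Psmb5 from -0.059 to 0.19 and Psmb6 from -0.012 to 0.21. Ciita became 0.015 with median-of-ratios scaling and 0.038 with quantile normalization, and Cxcl9 -0.084 with a pseudocount of 0.1. With single tumors left out, H2-Aa ran from -0.58 to 0.38, H2-Ab1 from -0.53 to 0.48, H2-Eb1 from -0.64 to 0.31, Cd74 from -0.22 to 0.64, Ciita from -0.40 to 0.44 and Cxcl9 from -0.57 to 0.82. With 3 tumors per genotype and unknown depth, small differences could not be resolved, and cell composition was not measured directly.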
